A study of Mus musculus with 13 samples.

Results

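The regions described here are the H3K9me3 regions of untreated mouse embryonic stem cells whose width falls in the range of a full-length retroelement. They were selected on measured peak positions. Peaks of the 4 H3K9me3 lists that touched or overlapped were merged, and a merged region was kept if all 4 lists had a peak in it, if it was at least 5 kb and under 10 kb wide, and if it lay on 1 of the 19 autosomes. Of 50019 merged autosomal regions, 10588 had a peak in all 4 lists, and 2827 of these had the stated width. They are called retroelement-size regions below, a name for their width alone. No annotation of repeats or genes of build mm9 was used here, so which of them hold an element was not tested, and no sequence is shown.

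The groups used were H3K27me3 after 2.5 µM tamoxifen (2 libraries), H3K27me3 without tamoxifen (2 libraries) and H3K9me3 without tamoxifen (4 libraries). All are J1 embryonic stem cells with an inducible Setdb1 knockout, grown without feeders, and cells without tamoxifen are called untreated. The sources used here give neither what drives the recombinase nor the number of clones. Of 13 samples, the 5 inputs were not analysed here. Each library is a list of peak positions without heights or read counts, so the read depth is unknown, and the level of Setdb1 cannot be checked. Nothing in the labels tells whether the libraries of a group stem from separate cultures, and p-values therefore reflect only how these samples vary, which may be technical. H3K9me3 replicate 4 has no antibody named in its labels and was placed by its title. Replicate 1 of each group was called with MACS2 2.0.10 and every other library with MACS2 2.1.0, per the submitters' processing notes.

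H3K9me3 is a mark of silent chromatin. In mouse embryonic stem cells it is placed over many endogenous retroviruses and some LINE elements by Setdb1, a histone methyltransferase brought to them by KRAB zinc finger proteins through their partner Trim28. Intracisternal A particles and MusD/ETn elements are known targets. A full-length endogenous retrovirus carries a long terminal repeat at each end around an internal coding part. H3K27me3, the mark of Polycomb repressive complex 2, marks silent developmental genes in the same cells.

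Retroelement-size regions made up 26.7% of the regions held by all 4 lists and, at 20.2 Mb, 42.1% of their bases. Their median width was 6980 bp, with quartiles at 5956 and 8256 bp, and 1987 of them (70.3%) measured at most 8 kb. The widths had no separate maximum inside the range. Counts per 500 bp fell almost steadily, with 386 regions from 5000 to under 5500 bp, 317 from 6500 to under 7000 bp and 186 from 9500 to under 10000 bp. The fullest class of all regions held by 4 lists lay below the range, with 1420 regions from 2000 to under 2500 bp.

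**Figure D1:**
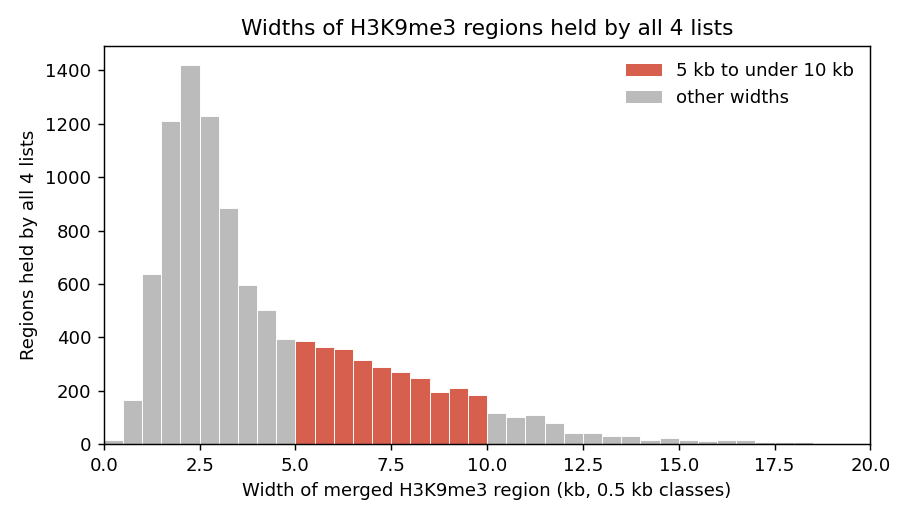
Number of H3K9me3 regions held by all 4 lists (vertical axis) by width in classes of 500 bp (horizontal axis, kb). Retroelement-size regions are the coloured bars, which decline from 386 to 186 per class with no separate maximum; the tallest bar, 1420 regions, stands at 2 to 2.5 kb.

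The rule's limits cut through a continuous range. The narrowest regions kept measured 5000 bp on chromosome 19 (61322946 to 61327945), 5001 bp on chromosome 1 (7350470 to 7355470) and 5001 bp on chromosome 11 (73919987 to 73924987). Just under the limit lay regions of 4996 bp on chromosome 1 (47280411 to 47285406), 4996 bp on chromosome 14 (34459721 to 34464716) and 4995 bp on chromosome 5 (4513638 to 4518632). The widest regions kept measured 9994 bp on chromosome 11 (70173556 to 70183549), 9991 bp on chromosome 2 (143972010 to 143982000) and 9990 bp on chromosome 3 (11546103 to 11556092). Just over it lay regions of 10003 bp on chromosomes 5 (120347208 to 120357210) and 6 (8644150 to 8654152) and of 10005 bp on chromosome 7 (49770082 to 49780086).

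The lists filled these regions in different ways. Replicate 1 covered 79.5% of their bases, replicate 2 covered 47.3%, replicate 3 covered 59.7% and replicate 4 covered 51.3%. In a single region the covered share of replicate 1 ran from 5.29% to 100%, with a median of 83.6%. The medians were 48.7% in replicate 2 (lowest 1.89%), 66.5% in replicate 3 (lowest 2.03%) and 54.9% in replicate 4 (lowest 2.15%), and each of these lists also reached 100% in some regions. Every base of a merged region lies in a peak of at least 1 list. All 4 lists had a peak over 32.9% of the bases, 13.4% lay in 3 lists, 12.2% in 2 and 41.4% in a single list.

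Replicate 1 described most retroelement-size regions as 1 continuous peak, and the other lists broke most of them up. Replicate 1 had a single peak in 2547 of the 2827 regions (90.1%), while replicate 2 had a single peak in 1283 (45.4%), replicate 3 in 1356 (48.0%) and replicate 4 in 1232 (43.6%). Exactly 2 peaks were found in 274 regions by replicate 1, and in 1193, 1166 and 1276 regions by replicates 2, 3 and 4. The highest number was 3 peaks in replicate 1 and 5 in each of the others. Internal gaps, the stretches between neighbouring peaks of a list, took 1.65% of all bases in replicate 1 and 21.4%, 23.3% and 23.1% in replicates 2, 3 and 4. Bases outside the outermost peaks took 18.8%, 31.4%, 17.0% and 25.7% in replicates 1 to 4.

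The lists differed most in the middle of the regions. When each region was scaled to its width, cover was low in the outermost 5% in every list. Inward of that, replicates 2, 3 and 4 had their highest cover near both ends and a dip at the centre, which replicate 1 did not have. Replicate 2 covered 57.4% of the bases from 15% to 20% of the width and 43.4% from 45% to 50%. Replicate 3 covered 73.0% of the bases from 10% to 15% of the width and 50.1% from 45% to 50%. Replicate 4 showed the same shape, with 61.1% of the bases from 10% to 15% and 45.7% from 45% to 50%. Replicate 1 covered 82.6% of the bases from 15% to 20% and 93.4% from 45% to 50%. In the first 5% of the width, replicates 1 to 4 covered 35.9%, 26.0%, 53.6% and 34.7%, so the centre was the lowest point in replicate 3 but not in replicates 2 and 4. The far side of the region mirrored the near side in all 4 lists.

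**Figure D2:**
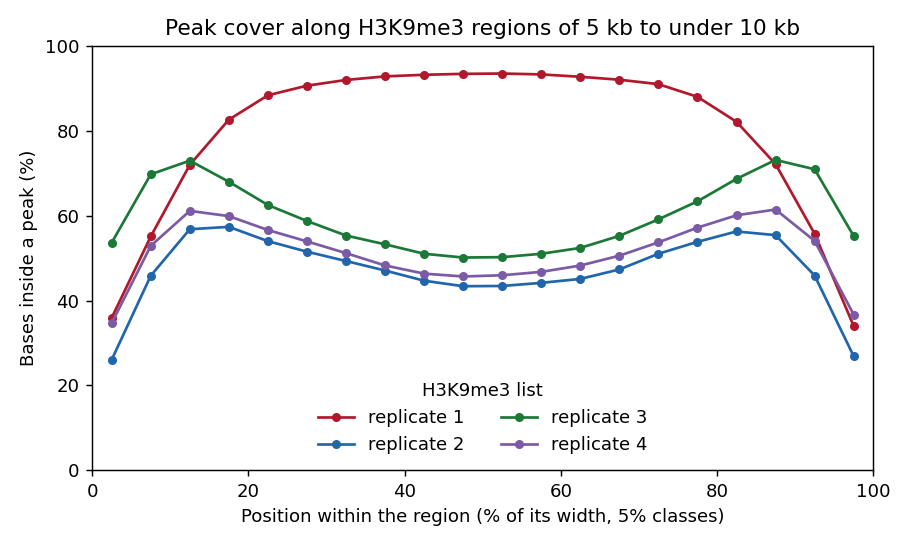
Share of bases inside a peak (vertical axis, %) along the scaled width of the 2827 retroelement-size regions (horizontal axis, % of width in classes of 5%), one line per H3K9me3 list. Replicate 1 rises to a plateau near 93% in the middle, while replicates 2, 3 and 4 peak at both shoulders and dip between them to 43.4%, 50.1% and 45.7% just before the centre.

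A list is said here to have a central gap in a region if its longest internal gap spans the region's midpoint. Replicate 1 had a central gap in 93 retroelement-size regions (3.29%), against 1.47% over all 10588 regions held by 4 lists. Replicate 2 had one in 919 (32.5%, against 15.6% over all), replicate 3 in 973 (34.4%, against 15.2%) and replicate 4 in 972 (34.4%, against 15.8%). These lists chose the regions, and a gap needs room, so the shares are given without a test. Central gaps were found in 5.07% to 6.86% of the regions of 2 to under 5 kb in replicates 2, 3 and 4, and in 52.3% to 52.9% of those of 10 kb or wider. Within the retroelement range they went from 21.2% of the regions of 5 to under 6 kb to 50.6% of those of 9 to under 10 kb in replicate 2, from 18.8% to 59.2% in replicate 3 and from 21.6% to 54.4% in replicate 4. In replicate 1 the share stayed between 2.26% and 4.28% in all 5 width classes.

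Replicates 2, 3 and 4 all had a central gap in 557 regions (19.7%). Another 387 regions had a central gap in 2 of these lists, 419 in 1 and 1464 in none. Regions with a central gap in all 3 had a median width of 7930 bp, and those with none 6551 bp. Replicate 1 had a peak over the midpoint in 2633 regions (93.1%), replicate 2 in 1288 (45.6%), replicate 3 in 1485 (52.5%) and replicate 4 in 1358 (48.0%). In 1226 regions (43.4%) the midpoint lay in a peak of replicate 1 alone, in 1051 (37.2%) it lay in peaks of all 4 lists, and in 76 it lay in peaks of replicates 2, 3 and 4 without replicate 1. Where none of replicates 2, 3 and 4 reaches the midpoint, a peak of replicate 1 must span it, because otherwise no merged region would exist there. Replicate 1 also differs from the others in its MACS2 release, so the library and the release cannot be told apart.

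The borders of the gaps lay close together in different lists. In the 557 regions with a central gap in replicates 2, 3 and 4, the left border differed between the lists by 100 bp at the median and the right border by 105 bp, and in 228 regions (40.9%) both borders lay within 200 bp in all 3 lists. The stretch left uncovered by all 3 had a median of 3467 bp, with quartiles at 2017 and 4951 bp, and added up to 2025 kb. In each list's own regions with a central gap (919, 973 and 972 in replicates 2, 3 and 4), the outermost peaks were about 1 kb wide. Where a list had more than 2 peaks in a region, these need not border the gap. The first and last peaks of regions with a central gap had median widths of 1159 and 1094 bp in replicate 2, 1284 and 1298 bp in replicate 3, and 1162 and 1174 bp in replicate 4. No 2 neighbouring peaks of replicates 2, 3 and 4 anywhere on the autosomes stood closer than 693 bp, so shorter gaps are not resolved.

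In classes of 100 bp, the fullest length class of the central gaps lay just under 7 kb. Most central gaps were shorter, with medians of 3140, 3780 and 3445 bp in replicates 2, 3 and 4. The fullest class of each of replicates 2, 3 and 4 was 6900 to under 7000 bp, with 33, 44 and 36 regions. Short gaps were also frequent. The successive classes from 700 to under 1000 bp held 25, 29 and 29 regions in replicate 2. They held 19, 15 and 21 in replicate 3, and 27, 25 and 27 in replicate 4. In wider classes the maximum therefore need not lie near 7 kb. From 6800 to under 7100 bp there were 69, 90 and 78 gaps, against 54, 86 and 80 over the whole 1000 bp from 5500 to under 6500 bp and 16, 10 and 25 from 7100 to under 8000 bp. A smaller group of 30, 48 and 34 gaps lay from 6500 to under 6800 bp. Regions with a gap of 6800 to under 7100 bp had median widths of 9354, 9193 and 9280 bp in the 3 lists, near the upper limit of the rule. In 25 regions, spread over 13 chromosomes, all 3 lists had a central gap of that length, and their borders differed between lists by 60 bp on the left and 55 bp on the right at the median. No central gap of replicate 1 was longer than 4541 bp.

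**Figure D3:**
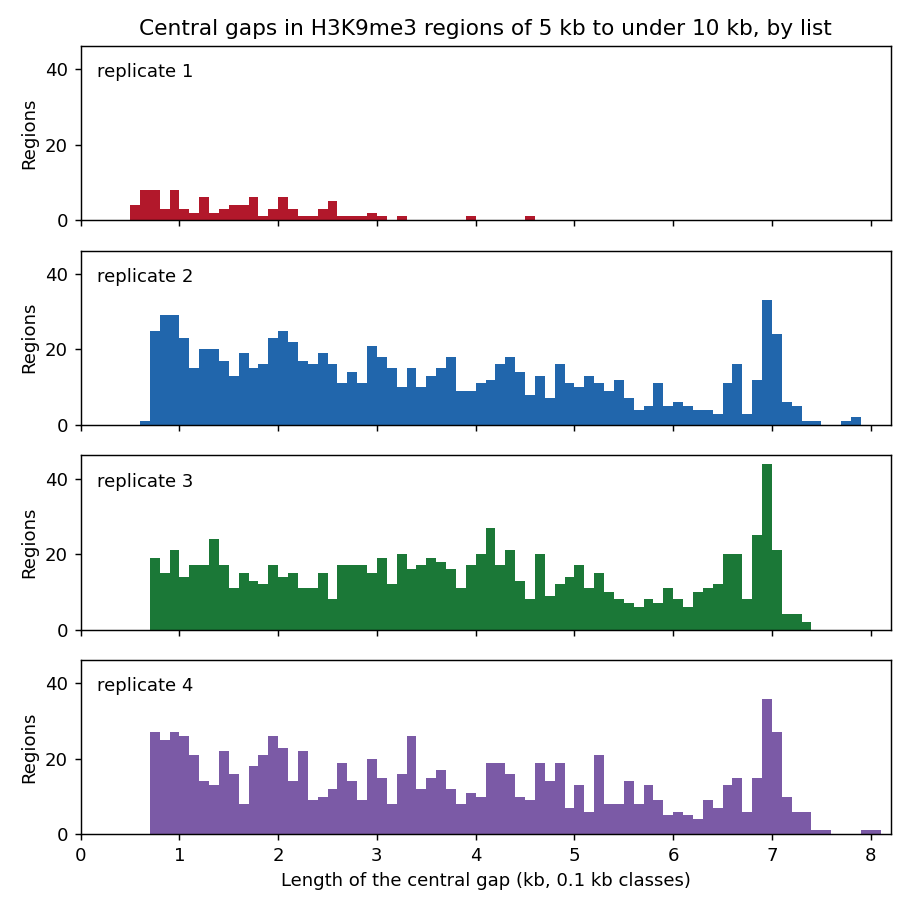
Number of retroelement-size regions (vertical axis) by length of the central gap (horizontal axis, kb in classes of 100 bp), one panel per H3K9me3 list. Replicates 2, 3 and 4 share their tallest bar at 6.9 to 7.0 kb, with 33, 44 and 36 regions, and 30, 48 and 34 regions at 6500 to under 6800 bp; replicate 1 has 93 central gaps in all, none over 4541 bp.

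Counted over all peaks of these lists, gaps of this length were also more numerous than those just shorter or longer. These counts include the central gaps of retroelement-size regions, 69, 90 and 78 of that length in replicates 2, 3 and 4. They also include those of the regions of 10 to under 15 kb given below. The remaining gaps were not counted separately, so no excess is shown outside these regions. Between neighbouring peaks of a list anywhere on the autosomes, gaps of 6800 to under 7100 bp numbered 264 in replicate 2, 418 in replicate 3 and 351 in replicate 4. The next shorter 300 bp held 209, 346 and 259, and the next longer 300 bp held 162, 285 and 229. Replicate 1 had 66 gaps of 6800 to under 7100 bp, with 74 just below and 58 just above. Just beyond the upper width limit, the 592 regions of 10 to under 15 kb had a central gap of 6800 to under 7100 bp in 67, 54 and 70 cases in replicates 2, 3 and 4. The next shorter 300 bp held 47, 48 and 51 of their central gaps, and the next longer 300 bp held 14, 12 and 15. Replicate 1 had 0 in each of these windows.

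The longest gaps of any list belonged to wide regions with a peak at each end. On chromosome 2 (124623226 to 124632463) the gap measured 8096 bp in replicate 4, with 7080 and 6683 bp in replicates 2 and 3. On chromosome 18 (45516156 to 45525439) it measured 7999 bp in replicate 4, with 7020 and 7184 bp in replicates 2 and 3. On chromosome 1 (13540302 to 13549452) it measured 7893 bp in replicate 2, with 6618 and 6652 bp in replicates 3 and 4, and on chromosome 16 (76168732 to 76178321) 7797 bp in replicate 2, with 6842 and 6981 bp. The exception was chromosome 14 (84265512 to 84274770), with a gap of 7854 bp in replicate 2 and no gap in replicates 3 and 4, which had 1 peak each. Replicate 1 had no gap in any of the 5.

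Stretches left uncovered by replicates 2, 3 and 4 together reached the same length. The 5 longest, chosen after the gaps had been seen, all lay in regions where each of these lists had exactly 2 peaks and replicate 1 had 1. The longest measured 7043 bp, from 121315493 to 121322535 in the region on chromosome 9 from 121314485 to 121324303. There replicate 1 covered 85.1% of the bases, and replicates 2, 3 and 4 covered 18.3%, 20.8% and 17.1%. The others measured 7012 bp on chromosome 19 (39455709 to 39462720), 7008 bp on chromosome 13 (118084709 to 118091716), 7002 bp on chromosome 18 (26988371 to 26995372) and 6982 bp on chromosome 10 (62566798 to 62573779).

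Other retroelement-size regions were filled from end to end in every list. The most completely covered, on chromosome 17 from 39979912 to 39985790 (5879 bp), was covered over 100%, 98.5%, 98.4% and 98.5% by replicates 1 to 4. A region of 7515 bp on chromosome 7 from 12595697 to 12603211 was covered over at least 96.6% in every list. Coverage was at least 96.3% for 7926 bp of chromosome 1 (5332555 to 5340480), at least 96.1% for 8290 bp of chromosome 3 (7046869 to 7055158) and at least 96.0% for 9635 bp of chromosome 10 (43593540 to 43603174). Next came chromosome 13 from 120277128 to 120284295 (at least 94.5%), chromosome 8 from 73969188 to 73974557 (at least 94.0%) and chromosome 4 from 113136387 to 113145662 (at least 93.3%). All 8 were single peaks in all 4 lists. Single peaks over at least 90% of a region's bases were found in 874 regions by replicate 1 (30.9%), 200 by replicate 2 (7.07%), 688 by replicate 3 (24.3%) and 294 by replicate 4 (10.4%).

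At the other end, some regions owed their width to replicate 1. In the region on chromosome 10 from 107436566 to 107446090 (9525 bp), replicate 1 covered 7638 bp and replicates 2, 3 and 4 covered 180, 828 and 1595 bp. On chromosome 8 from 3058759 to 3067897 (9139 bp), replicate 1 covered every base and the others 188, 630 and 466 bp. On chromosome 3 from 125829921 to 125838702 (8782 bp), replicate 1 covered 8357 bp and the others 392, 178 and 377 bp. Regions on chromosome 1 from 7982880 to 7992478 and on chromosome 2 from 8448616 to 8457244 were covered over 79.3% and 82.4% by replicate 1 and over 1.99% and 2.02% by replicate 2.

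Which list was left out therefore decided how many such regions there were. Without replicate 1, 1470 of the 2827 regions (52.0%) stayed in 1 piece, 1040 fell into 2 pieces and 317 into 3 or more. Without replicate 2, 3 or 4 the share in 1 piece was 97.1%, 89.7% and 94.9%. Merging from 3 lists and keeping what all 3 held gave 1405 regions of the stated width without replicate 1, and 2871, 2632 and 2810 without replicates 2, 3 and 4. The 1405 regions had a median width of 6460 bp and were better filled, with 74.8%, 90.2% and 79.1% of their bases covered by replicates 2, 3 and 4, and central gaps in 13.6%, 4.41% and 10.8% of them.

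A list that takes no part in choosing regions can be compared with the choice. Each list was set in turn against the regions built from and held by the other 3, and regions of 5 to under 10 kb were compared with those of 2 to under 5 kb. Nearly every wide region was found again. Replicate 1 had a peak in 1350 of 1405 wide regions (96.1%), against 5666 of 7669 narrower ones (73.9%) and 61.9% of all regions held by the other lists. Replicate 2 had a peak in 2780 of 2871 (96.8%), against 4922 of 5242 (93.9%) and 91.5% of all. Replicate 3 had a peak in 2618 of 2632 (99.5%), against 4860 of 4884 (99.5%) and 98.9% of all. Replicate 4 had a peak in 2757 of 2810 (98.1%), against 4898 of 4993 (98.1%) and 96.2% of all. The means were 97.6% ± 1.49 and 91.3% ± 11.9 (SD, n = 4 lists), a difference of 6.28 percentage points (two-sided exact sign-flip permutation p = 0.375, where 0.125 is the smallest possible). A wider region also meets a peak more easily by its width alone. With only the value of replicate 1 left out of the mean, the difference was 0.970 points, in regions that replicate 1 helped to choose. Over all 4 lists it turned to -9.55 points (exact sign-flip p = 0.375) when the list left out had to cover at least 50% of the bases.

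In replicates 2, 3 and 4 the midpoint of wide regions was covered less often also when the list had not chosen them. In each of these cases replicate 1 was among the lists that chose, and its peaks could bridge middles left open by the others. The comparison therefore cannot tell whether the dip is independent of replicate 1. The midpoint of regions of 5 to under 10 kb lay in a peak of the list left out in 43.3% of them for replicate 2, 46.7% for replicate 3 and 45.3% for replicate 4. In regions of 2 to under 5 kb it did so in 72.4%, 86.3% and 80.1%. For replicate 1, whose regions were the only ones chosen without it, the order was the other way round. Its peaks covered the midpoint in 79.9% of the wide and 64.3% of the narrower regions. Over the 4 lists the means were 53.8% ± 17.5 and 75.8% ± 9.51 (SD, n = 4), a difference of -22.0 points, lower in wide regions in 3 of 4 lists (two-sided exact sign-flip permutation p = 0.25, smallest possible 0.125). This comparison was added after the gaps had been seen, and the 4 values share lists. With only the value of replicate 1 left out of the mean, the difference was -34.5 points, still in regions that replicate 1 helped to choose. Regions built without replicate 1 had fewer central gaps, as given above.

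Retroelement-size regions lay on every autosome, at 1.17 per Mb over the span between the first and last peak of any list. Chromosome 13 was densest, with 209 regions or 1.78 per Mb, followed by chromosome 17 (129, 1.40 per Mb), chromosome 4 (207, 1.36 per Mb), chromosome 10 (165, 1.30 per Mb) and chromosome 8 (163, 1.27 per Mb). Chromosome 2 was sparsest, with 140 regions or 0.783 per Mb, followed by chromosome 18 (79, 0.900 per Mb), chromosome 11 (112, 0.942 per Mb), chromosome 19 (56, 0.961 per Mb) and chromosome 5 (159, 1.06 per Mb). The order was partly that of all H3K9me3 regions, since regions of other widths held by 4 lists stood at 3.85 per Mb on chromosome 13 and 2.36 per Mb on chromosome 2. Chromosome 8 had the highest density of other widths, at 4.95 per Mb, and retroelement-size regions were 20.4% of its held regions, against 31.6% on chromosome 13 and 26.7% overall. Regions with a central gap in replicates 2, 3 and 4 made up 13.0% of the retroelement-size regions on chromosome 7 (21 of 161). On chromosome 19 they made up 32.1% (18 of 56). These were the lowest and highest shares, they rest on small counts, and their difference was not tested.

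**Figure D4:**
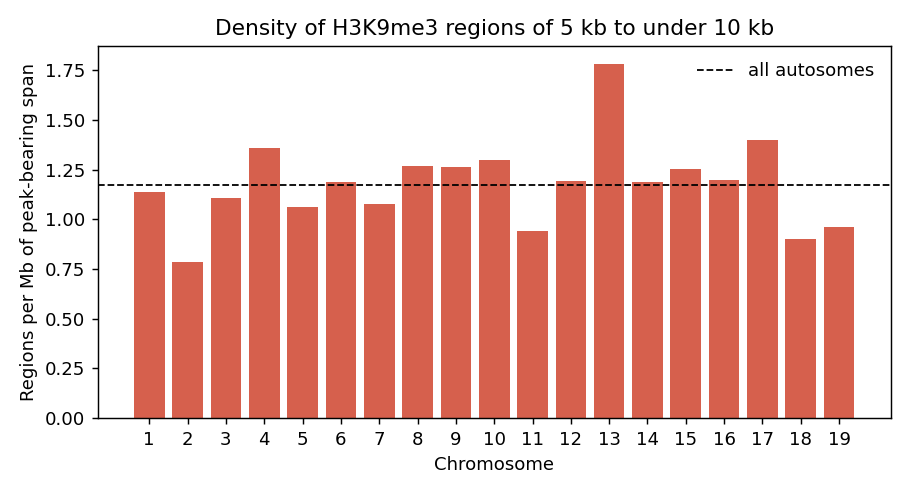
Retroelement-size regions per Mb of peak-bearing span (vertical axis) on each autosome (horizontal axis), one bar per chromosome, with the value over all autosomes, 1.17 per Mb, as a dashed line. Chromosome 13 stands at 1.78 per Mb and chromosome 2 at 0.783 per Mb.

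Along the chromosomes they were uneven. In the 220 bins of 10 Mb that lay wholly inside the span and past the first 10 Mb, the number of retroelement-size regions ran from 1 to 38, with a median of 10 and quartiles at 6 and 14. The variance between bins was 3.67 times the mean for them and 6.84 times for regions of other widths, whose mean per bin was higher (11.1 against 30.3 regions). The fullest bins were 20 to 30 Mb on chromosome 12 and 10 to 20 Mb on chromosome 9, with 38 regions each, and 60 to 70 Mb on chromosome 13 with 37. Next came the first 10 Mb of chromosome 9 with 30, then 10 to 20 Mb on chromosome 12 and the first 10 Mb of chromosomes 13 and 4 with 29 each, and 10 to 20 Mb on chromosome 17 with 27. These 8 of 258 bins held 257 regions (9.09%). They were picked for this count and were also rich in regions of other widths. They held 46 to 75 of those each, against the mean of 30.3 in the 220 bins. At the low end, a bin named after its value was seen, 100 to 110 Mb on chromosome 2, held 1 such region among 20 held regions of any width.

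Mouse autosomes carry their centromere at the end where coordinates begin, and that end was the fuller one. The first of 5 equal parts of the chromosomes held 929 retroelement-size regions (32.9%), and the other parts held 19.0%, 16.5%, 15.4% and 16.2%. Regions of other widths were spread the same way, with 32.1% in the first part and 19.3%, 17.2%, 14.9% and 16.6% in the rest.

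Neighbouring retroelement-size regions were 376 kb apart at the median and 844 kb on average, with quartiles at 116 and 1088 kb over 2808 spacings. Regions built without replicate 1, which are fewer, were 615 kb apart at the median. Spacings under 10 kb numbered 135 (4.81%), those from 10 to under 100 kb 504 (17.9%), those from 100 kb to under 1 Mb 1414 (50.4%) and those of 1 Mb or more 755 (26.9%). The mean was 2.25 times the median, and 2.29 times for regions of other widths, which were denser (median 134 kb). The nearest held region of any width lay at a median of 38.1 kb from retroelement-size regions and 40.2 kb from the others. The widest spacing, 12.7 Mb, lay on chromosome 18 between regions ending at 74500226 and starting at 87249794.

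Some regions stood side by side. The closest pair, on chromosome 11, was a region from 17828626 to 17834886 (6261 bp) followed after 128 bp by one from 17835015 to 17842267 (7253 bp). On chromosome 12, 187 bp separated regions of 9795 and 6104 bp (18179032 to 18188826 and 18189014 to 18195117). On chromosome 15, 193 bp separated regions of 9786 and 8456 bp (37762321 to 37772106 and 37772300 to 37780755). The next pairs lay on chromosome 7 (97558998 to 97564547 and 97564782 to 97571587, 234 bp apart) and chromosome 6 (128879213 to 128886429 and 128886791 to 128892736, 361 bp apart). Linking regions up to 50 kb apart gave 302 runs of 2 or more, which held 702 regions (24.8%). Of these runs 238 were pairs. The longest, on chromosome 12 from 20717009 to 20876397, held 8 regions of 57293 bp in all within 159 kb. Runs of 5 were found at 5 places, among them chromosome 6 from 136389316 to 136447502, where the 5 lay within 58.2 kb. Regions of other widths were not linked in this way, so runs are not shown to be particular to this width.

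H3K27me3 took no part in the choice of regions, so its peaks could be compared. Retroelement-size regions lay far from them. The median distance to the nearest H3K27me3 peak was 208 and 173 kb in the tamoxifen lists (replicates 1 and 2), against 320 and 209 kb in the untreated lists. All 4 medians were above those of the other H3K9me3 regions held by 4 lists, which were 178 and 143 kb with tamoxifen, and 281 and 174 kb untreated. The difference averaged 33.5 ± 5.10 kb and was positive in 4 of 4 H3K27me3 lists (SD, n = 4, two-sided exact sign-flip permutation p = 0.125, the smallest possible). The 4 lists were measured on the same regions, so their signs are not independent. The 557 regions with a central gap in replicates 2, 3 and 4 had medians of 180 and 151 kb with tamoxifen, and 268 and 186 kb untreated. Those of the 1464 regions with no central gap in these lists were 208 and 177 kb with tamoxifen, and 329 and 213 kb untreated. With a central gap in 1 of these lists they were 237 and 193 kb with tamoxifen, and 379 and 213 kb untreated. With one in 2 lists they were 215 and 193 kb, and 330 and 221 kb. The medians did not change steadily with the number of lists, and the 557 regions were also wider. This is a description without a test. For all retroelement-size regions, the difference against regions of 2 to under 5 kb alone was 19.1 kb (exact sign-flip p = 0.125). Against those of 10 kb or wider it was 52.8 kb (exact sign-flip p = 0.125).

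Closer to the peaks the shares were similar in size. With tamoxifen, 553 regions (19.6%) and 742 (26.2%) lay within 50 kb of a peak of replicates 1 and 2, against 20.6% and 27.1% of all regions held by 4 lists. In the untreated lists 379 (13.4%) and 622 (22.0%) did, against 12.8% and 22.6% of all. Set against regions of other widths, the share within 50 kb differed by -0.643 ± 1.05 percentage points and was higher for retroelement-size regions in 1 of 4 lists (SD, n = 4, exact sign-flip permutation p = 0.375). Over 1 Mb from any peak were 10.1% and 9.76% of the retroelement-size regions in the tamoxifen lists and 16.4% and 10.0% in the untreated ones.

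**Figure D5:**
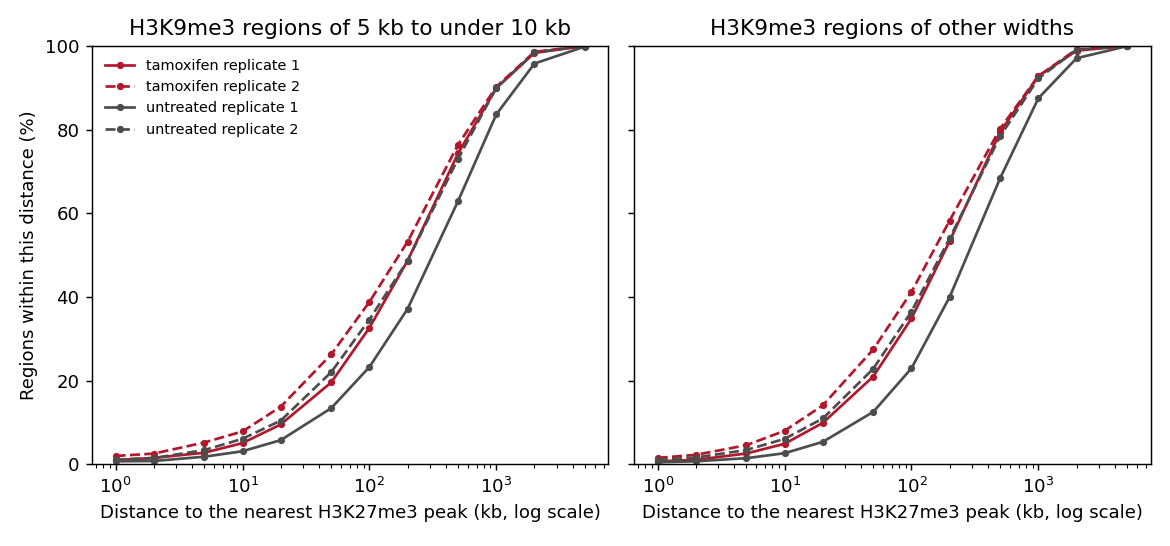
Share of regions (vertical axis, %) within a given distance of the nearest H3K27me3 peak (horizontal axis, kb, log scale), for retroelement-size regions on the left and other H3K9me3 regions held by all 4 lists on the right, one line per H3K27me3 list. Untreated replicate 1, the shortest list, runs lowest in both panels, and from 200 to 1000 kb each list's line is lower for retroelement-size regions.

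No comparison of tamoxifen with untreated libraries could reach a p under 0.05 with 2 libraries each. The share within 50 kb averaged 22.9% ± 4.73 with tamoxifen and 17.7% ± 6.08 untreated (SD, n = 2 each), a difference of 5.20 points (two-sided exact permutation p = 0.667; no arrangement gives less than 0.333), and the groups overlapped. The difference was 6.15 points between the replicates numbered 1 and 4.24 points between those numbered 2. List length moved with it, at 14903 and 22072 autosomal peaks with tamoxifen and 6917 and 16916 untreated. With the 7041 widest peaks of each list the difference was -0.937 points (exact permutation p = 0.333), and without untreated replicate 1 it was 0.902. Median distances were 190 ± 24.9 kb with tamoxifen and 265 ± 79.0 kb untreated (exact permutation p = 0.333, the smallest possible). The groups did not overlap, but 207.8 kb in tamoxifen replicate 1 and 208.8 kb in untreated replicate 2 were almost equal.

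Overlap with H3K27me3 was rare. With tamoxifen, 15 retroelement-size regions (0.531%) and 35 (1.24%) overlapped a peak of replicates 1 and 2, against 0.444% and 0.973% of all regions held by 4 lists. In the untreated lists 12 (0.424%) and 19 (0.672%) did, against 0.34% and 0.661% of all. Most regions of other widths were narrower, and a wider region meets a peak more easily by its width alone, so no test against them is given. The means for retroelement-size regions were 0.884% ± 0.50 with tamoxifen and 0.548% ± 0.175 untreated (SD, n = 2 each, exact permutation p = 0.667). In all, 44 regions overlapped a peak of at least 1 H3K27me3 list, 25 of them in a single list and 7 in all 4. A peak of both tamoxifen lists and of no untreated list was found in 2 regions, and the reverse in 1. The more numerous regions of other widths overlapped peaks of all 4 lists in 14 cases. The other combined counts are not given for them, so none is shown to be particular to this width.

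The region with the most H3K27me3 was also the one most completely covered by H3K9me3, on chromosome 17 from 39979912 to 39985790. It shared 4117 and 4834 bp with peaks of the tamoxifen lists and 4102 and 4852 bp with those of the untreated lists, so all 8 lists had peaks over most of it. On chromosome 11 from 3089322 to 3096047 the shared length was 2532 and 5034 bp with tamoxifen, against 3986 and 4016 bp untreated. On chromosome 9 from 91278502 to 91285053 it was 3323 and 1253 bp with tamoxifen, against 6552 and 1635 bp untreated. Regions on chromosome 6 (90258221 to 90267394), chromosome 5 (121274239 to 121282556) and chromosome 10 (12807371 to 12812543) also overlapped peaks of all 4 H3K27me3 lists, by 1479 to 3276 bp in each. The region on chromosome 9 from 92823018 to 92832917 shared 2648 and 3284 bp with the tamoxifen lists, against 0 and 2588 bp with the untreated ones. That on chromosome 6 from 30683136 to 30691322 shared 0 and 3614 bp with tamoxifen, against 0 and 599 bp untreated. No list of problem positions was applied, and the part of such positions in regions with peaks of all 8 lists was not tested.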

How the data were processed

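H3K9me3 and H3K27me3 were measured by ChIP-seq. The authors deposited 1 list of peak positions per library, without a score, a p-value or a read count; reads were aligned to mm9 with Bowtie 0.12.7 and peaks called with MACS2 2.0.10 or 2.1.0, per the submitters' processing notes. The sources used here do not give the calling mode, threshold or control. Depth is unknown, and input libraries were not analysed. The reference tables at hand follow another build, so no genes or sequences were assigned.

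Lists were taken as deposited. Touching peaks were merged, a list held a region if it shared at least 1 bp with it, and coordinates are printed counting from 1. Distances run from edge to edge. The members and lists were chosen with earlier results of these data known. The regions named were the most and least covered (by the lowest share over the 4 lists), those at the width limits, the closest neighbours, those with the longest gap in any list, those sharing most bases with H3K27me3, the densest and sparsest chromosomes and the densest bins. Replicates were compared first, and at most 1 peak was identical between any pair of H3K9me3 lists. Tests were exact sign-flip permutations over lists and exact permutations over libraries. The midpoint and central-gap measures and their alternatives were added after seeing the data. Alternatives changed the merging distance, the covered share, the peak width, the number of lists, the chromosomes, the H3K27me3 distance and the lists left out. Software was Matplotlib 3.10.9, SciPy 1.17.1, pandas 2.3.3, NumPy 2.4.6 and Python 3.11.15. The merging and gap steps were tested on simulated data.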

Additional observations from a re-analysis of the deposited data

Results flagged for a closer look

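H3K9me3 replicate 1 lay far from the other 3 lists in 4 of 6 measures of how a list fills retroelement-size regions, in each case by a gap to the nearest other list that took up most of the whole range. It had a central gap in 3.29% of the regions, while the other lists had one in 32.5% to 34.4%. It had a peak over the midpoint in 93.1%, while the others had one in 45.6% to 52.5%. It had a single peak in 90.1%, while the others did in 43.6% to 48.0%. Internal gaps took 1.65% of the bases in replicate 1 and 21.4% to 23.3% in the others. Replicate 1 did not lie apart in every respect. Bases outside the outermost peaks took 18.8% in replicate 1, between 17.0% in replicate 3 and 25.7% in replicate 4. These are descriptions and no test: the 4 lists themselves chose the regions, a peak of replicate 1 has to span the midpoint where no other list does, and the 4 measures share the same peaks. The rate of about 1 in 20 groups flagged by chance therefore cannot be applied to them. Replicate 1 was also the list with the fewest H3K9me3 peaks on the autosomes (17030, while the others had 28660 to 41393) and the longest ones (median 1900 bp, while the others had 813 to 838 bp). It was the only one of the 4 called with MACS2 2.0.10, so the library and the release cannot be told apart.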

How the results depend on the processing

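The number of retroelement-size regions, 2827, became 1110 when every list had to cover at least 50% of the bases, and ranged from 1405 (without replicate 1) to 2871 with 1 list left out. It was 2991 with peaks merged up to 1 kb apart, 2531 without peaks under 500 bp, 3040 when 3 lists sufficed and 2889 with chromosome X. The median width of 6980 bp became 7070 bp with merging up to 1 kb and 6706.5 bp with 50% cover, and ranged from 6460 to 6972 bp with 1 list left out. The median spacing of 376 kb became 411 kb without peaks under 500 bp and ranged from 374 kb to 615 kb (without replicate 1), and was 433 kb without replicate 3. The held share of wide minus narrower regions, 6.28 points, turned to -9.55 with 50% cover. With the value of 1 list left out of the mean, and regions not rebuilt, it ranged from 0.970 (replicate 1) to 8.39. The midpoint difference of -22.0 points ranged in the same way from -34.5 (value of replicate 1 left out) to -16.1. Tamoxifen minus untreated within 50 kb, 5.20 points, turned to -0.937 with equally long lists of the widest peaks, was 1.86 at 10 kb and 6.79 at 100 kb, and ranged from 0.902 (without untreated replicate 1) to 9.50 (without untreated replicate 2). The replicate block gave 5.20 points (exact sign-flip permutation p = 0.5). The labels do not say that a replicate number marks a shared batch, and the deviations of same-numbered libraries correlated at 0.297, a value that is equal for both numbers by construction with 2 libraries a group. The distance difference of 33.5 kb stayed positive in all 11 alternatives, from 19.1 to 52.8 kb. The causes of these shifts were not tested. Positions without heights or depth limit every result to where a peak was called.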
